A study of Mus musculus with 12 samples.

Results

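Integrins are the main receptors through which cells hold on to the extracellular matrix, and laminins are the proteins that many of them bind. The genes of both families were followed in RNA-seq of the mouse cochlea, the spiral organ of hearing. A row of the expression table was taken as a member when its gene name was that of an integrin alpha subunit (Itga and a number or letter), an integrin beta subunit (Itgb and a number) or a laminin chain (Lama, Lamb or Lamc and a number). This gave 37 of the 37432 genes in the table, 18 alpha subunits, 8 beta subunits and 11 laminin chains. The names chose the members and no measured value did.

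The study compared wild-type mice with 35delG homozygous mice (Gjb2 35delG/35delG), which carry on both alleles the deletion of 1 base in Gjb2, the gene of the gap junction protein connexin 26, that underlies much human hereditary deafness. Cochleae of male mice at postnatal day 14 (P14) were cut into 3 equal sections, the apical, middle and basal turns, which with 2 genotypes makes 6 groups, each sequenced as 2 biological repeats, 12 libraries in all. The homozygous mice were grown wholly from male embryonic stem cells by tetraploid complementation on an almost pure C57BL/6J background, with birth by cesarean section and ICR foster mothers. Wild-type males were bought at the same age, so that genotype and origin cannot be told apart in any library. How many mice or stem cell lines stand behind a library is not stated in the sources used here, and the labels do not tie the turns of 1 mouse together.

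An integrin is a pair of 1 alpha and 1 beta subunit, each crossing the membrane once. The beta subunit decides which family the pair belongs to: pairs with Itgb1 bind laminin (with Itga3, Itga6, Itga7), collagen (Itga1, Itga2, Itga10, Itga11) or the RGD peptide of fibronectin, nephronectin and related proteins (Itga5, Itga8, Itgav), pairs with Itgb2 are confined to leukocytes, and Itga2b with Itgb3 is the fibrinogen receptor of platelets. A laminin is a cross-shaped trimer of 1 alpha, 1 beta and 1 gamma chain that assembles the sheet of a basement membrane. In the cochlea basement membranes lie under the epithelium that holds the hair cells, around the capillaries of the stria vascularis and around each Schwann cell of the nerve, and integrin alpha 8 is known from hair cells, where it takes part in forming the hair bundle.

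Levels are FPKM, fragments per kilobase of transcript relative to all mapped fragments, calculated by the authors and here divided by a scaling factor per library (0.917 to 1.06). FPKM are per length, so levels of different genes can be set side by side. Differences between groups were tested with limma on log2(scaled FPKM + 1), in 1 fit of all 6 groups over 16194 genes, with the thresholds of the study: called genes are those past a fold change of 2 on that scale with an adjusted p below 0.01. Each difference is given on the log2 scale ± its SE from this fit, every group has n = 2, and the sequencing depth behind a value is unknown, which leaves precision to be read from the repeats. A gene was tested when it reached 1 scaled FPKM in 2 or more libraries. That held for 33 of the 37 members, and the 4 that did not are Itgae, Itgad, Itgax and Lama3. Of the 37 gene identifiers, 35 were found in GENCODE M21 (GRCm38), 28 of them with the same start and end.

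The libraries differed in tissue make-up, and this touches the results that follow. Summed over 8 marker genes, Schwann cell and myelin transcripts were at 1383 and 5510 scaled FPKM in the wild-type basal libraries and 9162 and 14543 in the homozygous ones. In the middle turn these sums were 19556 and 5569 for wild-type and 769 and 749 for homozygous libraries. The sum of 8 neuron markers was 9.51 and 739.8 against 2593 and 2848 in the basal turn. The 8 hair cell markers summed to 107 and 90.8 for wild-type and 7.87 and 4.76 for homozygous basal libraries, and 9 markers of the cochlear epithelium to 1141 and 578 against 314 and 208. Transcripts of neutrophils (8 genes) summed to 6365 in the first homozygous middle library and 2040 in the second wild-type basal library, against 35.7 to 502 in the other 10. Skeletal muscle markers stayed at or under a sum of 5.26 in every library. Gjb2 itself ranged from 139.7 to 434 scaled FPKM in wild-type and from 58.6 to 451 in homozygous libraries. A deletion of 1 base need not lower the transcript, so these levels do not check the genotype. By qPCR, however, the study reported less Gjb2 transcript in the homozygous than in the wild-type cochlea at P14. In such bulk samples, fewer cells of a type and less RNA per cell cannot be told apart. Staining and cell counts in the study found hair cells and nearby supporting cells intact in homozygous mice at P14, which these sums do not measure.

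The beta 1 subunit, Itgb1, was the member of highest level, with a median of 98.3 scaled FPKM over the 12 libraries. It was followed by the laminin chains Lamc1 (55.9) and Lamb2 (48.1) and by Itgb5 (44.1), again as medians. In all, 15 members had a mean of at least 10 scaled FPKM, 16 a mean between 1 and 10, and 6 a mean under 1. Of the 37, 22 were at or above 1 in every library.

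**Figure D1:**
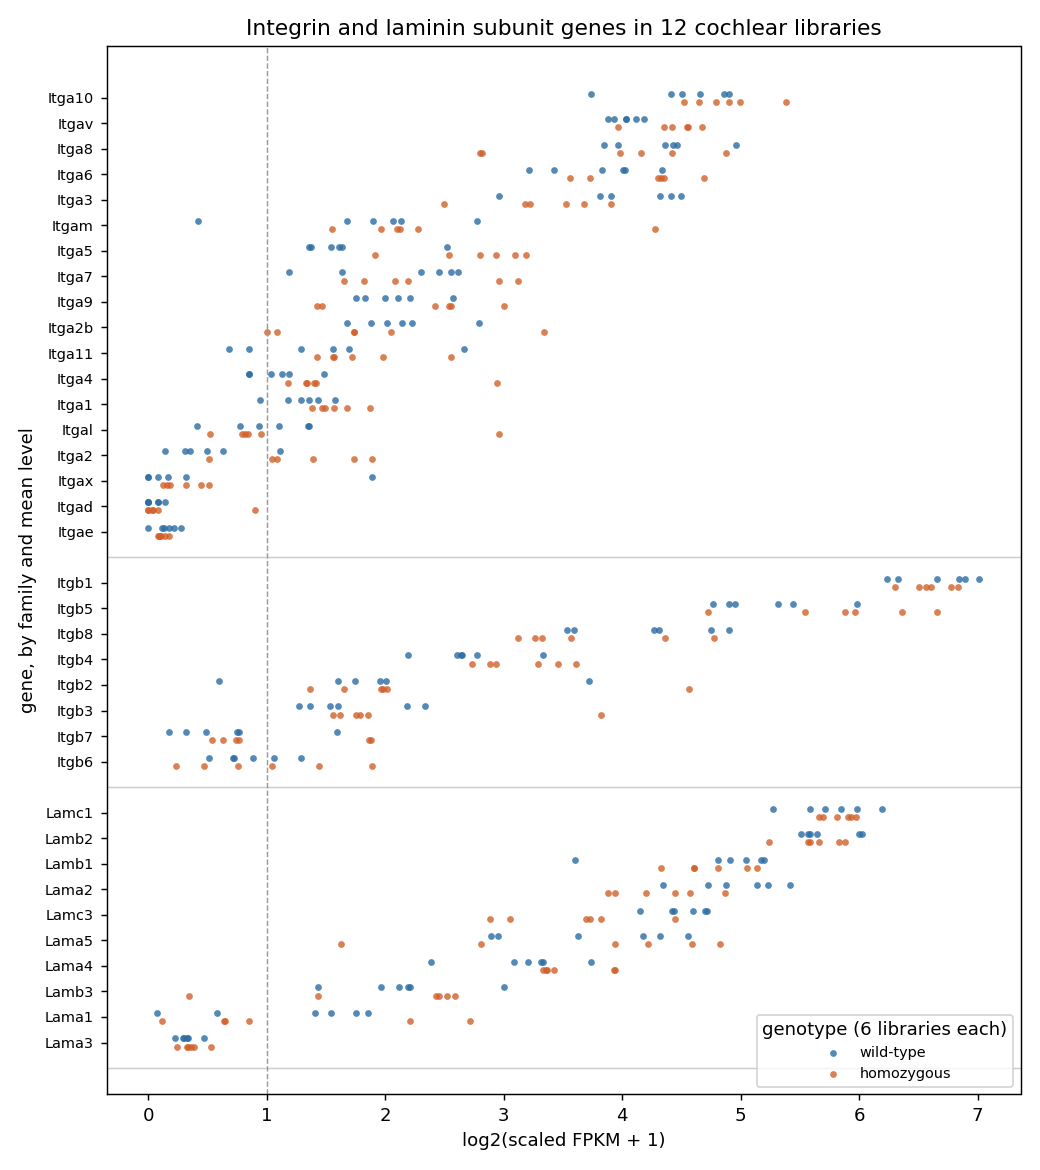
Level of 36 of the 37 integrin and laminin genes as log2(scaled FPKM + 1), 1 point per library, wild-type in blue and homozygous in orange (6 libraries each); genes are ordered by mean within each family, and the dashed line marks 1 scaled FPKM. Itgb1 lies at the top of the range in both genotypes, and single homozygous points far to the right for Itgam, Itgb2, Itga2b and Itgb3 are the first homozygous middle library.

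Itga10, the alpha 10 subunit of a collagen receptor known from chondrocytes, ranged from 12.3 in the first wild-type basal library to 40.7 in the second homozygous middle library, with 12.3 and 24.2 for wild-type and 24.1 and 22 for homozygous basal libraries. Exons of Itga10 overlap Gm42957 on the same strand, so reads of the pair may have been shared out. Itgav, the alpha V subunit that pairs with Itgb5, Itgb6 and Itgb8, stood at 15.4 and 15.3 (apical), 17.2 and 13.7 (middle) and 14.3 and 16.4 (basal) in wild-type mice and at 24.5 and 22.3 (apical), 20.4 and 22.5 (middle) and 19.5 and 14.6 (basal) in homozygous mice. Its homozygous libraries lay above the wild-type ones in the apical and middle turns and overlapped them in the basal turn, with differences of 0.58 ± 0.18 (limma adjusted p = 0.164) and 0.46 ± 0.18 (limma adjusted p = 0.150) in the former, neither of them called.

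Among the beta subunits and laminins of highest level, Itgb1 stood at 79.2 and 74.5 (apical), 114 and 118 (middle) and 99.9 and 128 (basal) in wild-type and at 89.6 and 109 (apical), 113 and 93.9 (middle) and 78.1 and 96.6 (basal) in homozygous mice. Its homozygous libraries lay above the wild-type ones at the apex and below them in the other two turns. Its genotype difference was not called in any turn, with 95% intervals of -0.09 to 0.81, -0.61 to 0.28 and -0.82 to 0.07 on the log2 scale. The shared gamma 1 chain Lamc1, part of most laminins, ran from 37.8 to 72. Its wild-type libraries had 62.4 and 51.5 (apical), 72 and 56.5 (middle) and 47.1 and 37.8 (basal), and the homozygous ones 58.9 and 55.3 (apical), 50.8 and 61.8 (middle) and 59.9 and 49.7 (basal). Lamb2, the beta 2 chain, was at 63.9 and 49.1 (apical), 46.4 and 44.6 (middle) and 62.8 and 47.1 (basal) in wild-type and 58 and 49.7 (apical), 47.1 and 55.9 (middle) and 36.8 and 46.5 (basal) in homozygous mice. The beta 1 chain Lamb1 was at 32 and 35.6 (apical), 29 and 35 (middle) and 27 and 11.1 (basal) against 34.3 and 23.3 (apical), 19.1 and 23.3 (middle) and 32.3 and 27 (basal). No genotype difference of Lamc1, Lamb2 or Lamb1 was called in a turn. The 95% intervals for the basal turn were -0.09 to 0.82 for Lamc1, -0.86 to 0.09 for Lamb2 and -0.08 to 1.53 for Lamb1.

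The first comparison asks how the homozygous cochlea differs from the wild-type one in each turn. In the basal turn 6 of the 33 tested members were called, against 4.3% of all genes tested. Itga7, Itga6, Itgb8 and Lama1 rose, as did 2.53% of all genes, and Itga8 and Lamc3 fell, as did 1.77%. Only 1 member was called in the middle turn, where 0.179% of all genes were, and it was Itgb8, which fell. In the apical turn limma called 0 members (0.179% of all genes), while with an unadjusted p under 0.05 there were 6 higher and 5 lower members, where 7.39% of all genes were higher and 9.03% lower. At that same unadjusted level the middle turn gave 6 higher members (12.9% of all genes) and 5 lower (12.5%), and the basal turn 6 higher (16.4%) and 7 lower (16%). The mean of the 3 turns gave 0 calls by limma (0.352% of all genes), and 8 higher members (8.86%) and 5 lower (9.76%) without adjustment. With the adjusted p relaxed to 0.05, 2 members passed in the middle turn (2.93% of all genes), Itgb8 and Itga5, and 1 over the mean of the turns (1% of all genes), Itga5. In the basal turn 6 higher and 3 lower members passed then, where 1101 and 855 of the 16194 genes tested did.

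These calls rest on the spread that all 6 groups share. With only the 4 libraries of the turn in the fit, limma called 0 members in the basal and in the middle turn, and the adjusted p of the 6 basal members then lay at 0.149 to 0.154. A replicate block left 1 call in the basal and 0 in the middle turn, and library weights or no filter on low values left 0 in the basal turn. Leaving out the second wild-type basal library brought the basal count to 9, leaving out either homozygous middle library to 4, and leaving out any of the other 9 libraries to 0 or 1. The call of Itgb8 in the middle turn was lost without any apical or middle library and kept without any basal one. The direction of these 7 differences was kept in all of these fits.

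**Figure D2:**
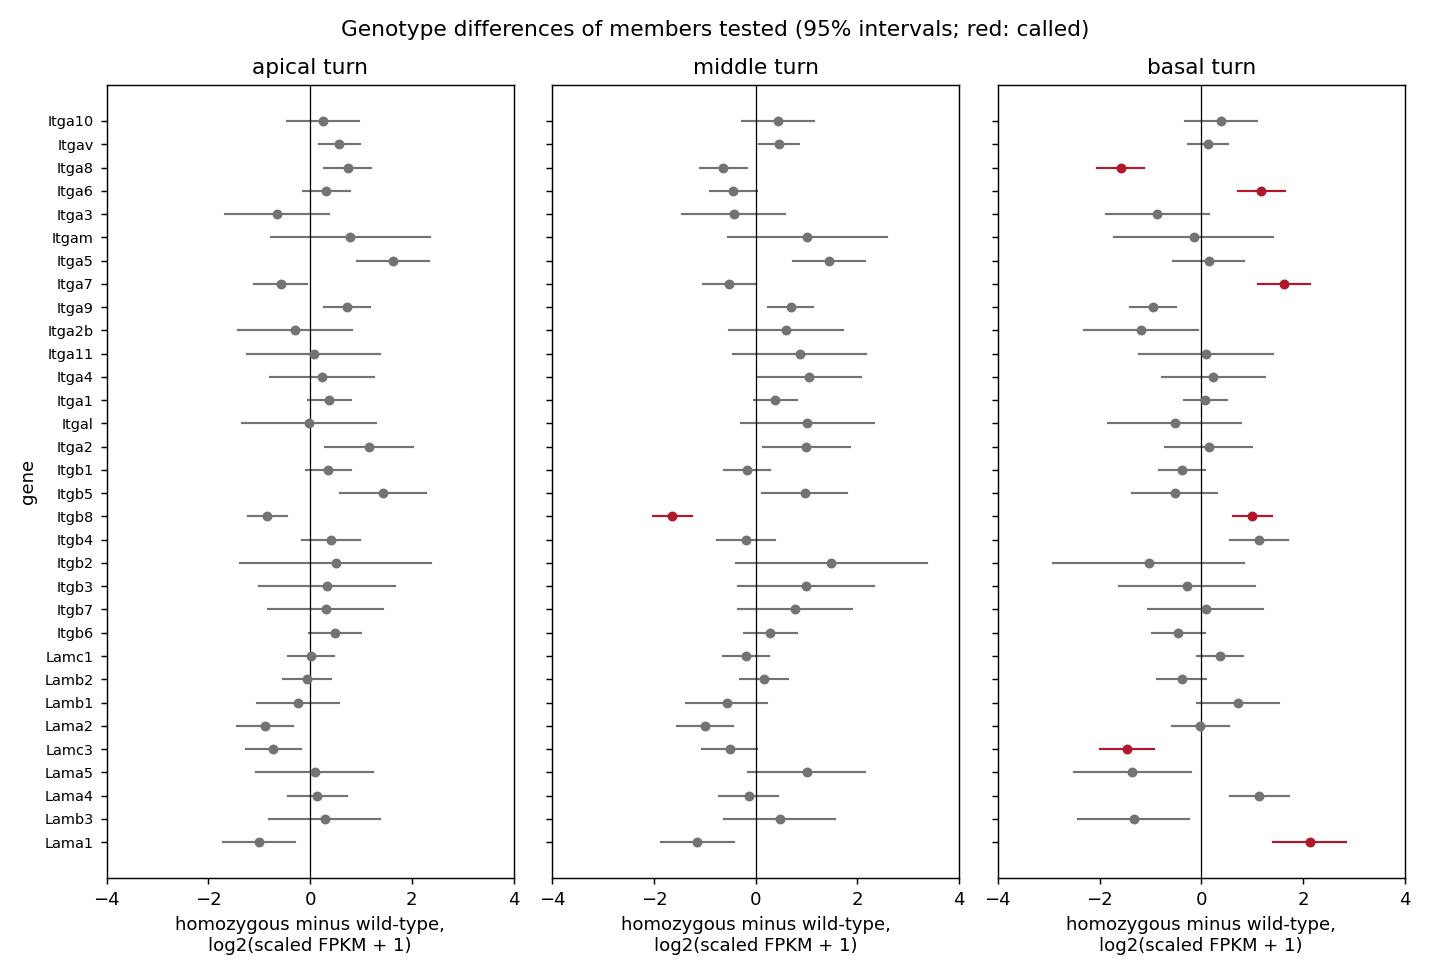
Homozygous minus wild-type difference on log2(scaled FPKM + 1) of 32 of the 33 members tested in the apical, middle and basal turns, as points with 95% intervals from limma; red marks the called members. The 6 red members of the basal panel and Itgb8 in the middle panel are the only calls, and no member is called in the apical panel.

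The median difference of the 33 tested members on the log2 scale was 0.28 at the apex, 0.38 in the middle turn and -0.02 at the base, beside -0.03, 0.04 and -0.02 for all genes tested. In the middle turn the 15 tested alpha subunits had a median of 0.59 and the 8 beta subunits one of 0.53, while the 10 tested laminins had -0.16. Without the first homozygous middle library, the one rich in neutrophil transcripts, the median of the 33 members in the middle turn was -0.02. Without the second wild-type apical library that of the apical turn was 0.06, and that of the basal turn ran from -0.33 without the first to 0.12 without the second wild-type basal library. The FPKM as deposited, without scaling, put the median of all genes in the middle turn at 0.17 and that of the members at 0.49. Libraries of the genotypes did not overlap for 15 higher (26.9% of all genes) and 7 lower members (32.1%) of the apical turn, 13 higher (31.2%) and 10 lower (28.3%) of the middle turn, and 7 higher (26.2%) and 10 lower (27.8%) of the basal turn.

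The laminin-binding integrins Itga6 and Itga7 were higher in the homozygous basal turn. Integrin alpha 6, which pairs with Itgb1 or Itgb4, occurs in epithelia and in Schwann cells. In wild-type mice it stood at 15.3 and 15.1 (apical), 13.2 and 19.3 (middle) and 8.26 and 9.75 (basal), and in homozygous mice at 19.4 and 19.1 (apical), 12.3 and 10.8 (middle) and 24.9 and 18.7 (basal). Both homozygous basal libraries were above both wild-type basal ones, which were the lowest of all 12, and the difference was 1.18 ± 0.20 (limma adjusted p = 0.00844). Integrin alpha 7, best known as the laminin receptor of skeletal muscle and also made by Schwann cells, was in wild-type mice at 4.89 and 5.14 (apical), 3.94 and 4.48 (middle) and 2.11 and 1.29 (basal), and in homozygous mice at 3.57 and 2.53 (apical), 2.14 and 3.23 (middle) and 7.72 and 6.76 (basal). Its mean in the homozygous basal turn was 4.26 times the wild-type mean, with a difference of 1.63 ± 0.23 (limma adjusted p = 0.00528). In the apical and middle turns the homozygous libraries of Itga7 were all below the wild-type ones, without a call. Exons of Itga7 overlap Mettl7b on the opposite strand, and whether strand was used is not stated in the sources used here.

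Their laminin-binding relatives did not pass the threshold. Integrin beta 4, the partner of alpha 6 in hemidesmosomes and at the outer face of myelinating Schwann cells, was in wild-type mice at 5.22 and 5.85 (apical), 9.1 and 5.26 (middle) and 5.08 and 3.56 (basal) and in homozygous mice at 8.8 and 6.66 (apical), 5.64 and 6.37 (middle) and 9.97 and 11.2 (basal). The libraries of its basal turn did not overlap, with a difference of 1.14 ± 0.25 (limma adjusted p = 0.0173). Exons of Itgb4 overlap B230344G16Rik on the opposite strand. Itga3, the alpha 3 subunit of epithelial laminin receptors, ranged from 4.66 to 21.5, the lowest in a homozygous and the highest in a wild-type basal library, and its 95% interval in the basal turn was -1.88 to 0.15. Schwann cell and myelin markers were higher in the homozygous basal turn for 8 of 8 genes, 3 of them called, and the neuron markers for 8 of 8, none of them called. Their part in the differences of Itga6, Itga7 and Itgb4 was not tested.

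Integrin beta 8, which pairs with alpha V to release active TGF-beta, was called in opposite directions in different turns. In wild-type mice it stood at 18.2 and 18.8 (apical), 25.9 and 28.9 (middle) and 10.6 and 11.1 (basal), and in homozygous mice at 9.0 and 10.9 (apical), 8.59 and 7.69 (middle) and 19.6 and 26.3 (basal). The homozygous libraries were below all wild-type ones in the apical and middle turns and above them in the basal turn. The differences were -0.84 ± 0.17 (limma adjusted p = 0.0619) in the apical turn, -1.64 ± 0.17 (limma adjusted p = 0.00581) in the middle turn, where it was called lower with a wild-type mean 3.37 times the homozygous one, and 1.0 ± 0.17 (limma adjusted p = 0.00811) in the basal turn, where it was called higher at 2.12 times the wild-type mean. The basal difference is just past the limit of 1 on the log2 scale, and it was 0.93 after quantile normalization, short of the limit. Schwann cell and myelin markers also changed direction between turns. In homozygous mice 8 of 8 were lower at the apex, 8 of 8 lower in the middle turn and 8 of 8 higher at the base. Of 8 neuron markers, 6 were lower at the apex, 7 in the middle turn and 0 at the base. Neuron sums of the middle turn were 1334 and 1438 for wild-type and 313 and 41.4 for homozygous libraries. The part of these markers in the differences of Itgb8 was not tested. The gene lies at chr12:119158022-119238802 (mm10, minus strand).

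The RGD-binding alpha 8 subunit fell in the basal turn. In wild-type mice it stood at 14.6 and 13.4 (apical), 30.1 and 21 (middle) and 20.5 and 19.5 (basal), and in homozygous mice at 28.5 and 20.4 (apical), 14.8 and 16.9 (middle) and 6.03 and 5.95 (basal). The homozygous basal libraries were the lowest of the 12 and lay far below the wild-type basal pair, whose mean was 3.34 times theirs, and the difference was called at -1.59 ± 0.20 (limma adjusted p = 0.00475). In the apical turn the homozygous pair lay above the wild-type pair (0.74 ± 0.20, limma adjusted p = 0.134), and in the middle turn below it (-0.64 ± 0.20, limma adjusted p = 0.0995), neither called. Hair cell markers, as given above, were lower in the homozygous basal turn for 7 of 7 tested genes, 2 of them called, and the epithelial and supporting cell markers for 9 of 9, also 2 of them called. Of other lists, 5 of 6 spiral ligament fibrocyte markers (0 called) and 5 of 5 tested chondrocyte markers (1 called) were also lower there. The fibrocyte sums were 7039 and 6726 for wild-type and 2527 and 497 for homozygous basal libraries. Chondrocyte sums were 2223 and 869 against 476 and 191. Strial markers were lower for 7 of 8, while neuron and Schwann cell markers, as given above, were higher for 8 of 8 each. In the other turns the hair cell markers did not move with Itga8. Their sums were 520 and 516 for wild-type and 297 and 270 for homozygous apical libraries, and 20.1 and 87.2 against 203 and 367 in the middle turn. Of the 9 epithelial and supporting cell markers, 6 were higher in the homozygous apical turn and 7 in the middle turn. The part of these markers in the level of Itga8 was not tested. Exons of Itga8 overlap E030013I19Rik on the opposite strand. Its known ligand nephronectin (Npnt) was at 18.6 and 17.5 (apical), 17.6 and 15.5 (middle) and 16.7 and 59.3 (basal) in wild-type and 44.4 and 35 (apical), 29 and 25.5 (middle) and 19.6 and 8.3 (basal) in homozygous mice, and was not called in any turn.

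The gene of alpha 8 lies at chr2:12106632-12301922 (mm10, minus strand). The 250 bases before its RefSeq start, which lies 22 bases upstream of the start in the table, are shown for Itga8 as the integrin called lower in the basal turn. They were read at chr2:12301945-12302194 on the minus strand from RefSeq (GRCm38.p6), 5′ to 3′, in lower case with capitals for a match to a motif, of which this window has none. Exons of E030013I19Rik overlap those of Itga8 itself, and whether they reach into the window was not examined.

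Itga8: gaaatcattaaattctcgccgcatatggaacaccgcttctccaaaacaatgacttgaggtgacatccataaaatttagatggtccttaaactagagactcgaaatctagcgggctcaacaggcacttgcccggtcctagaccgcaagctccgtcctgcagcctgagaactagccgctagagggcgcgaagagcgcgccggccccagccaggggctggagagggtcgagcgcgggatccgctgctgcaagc

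The windows of the members were searched on both strands for GGGCGG (the GC box), CCAAT (the CCAAT box), TATAAA (the TATA box) and GAGGAA (the core bound by PU.1, a factor of myeloid cells), letters whose matches do not overlap in the windows shown. RefSeq windows were matched for 23 of the 37 members, with chromosome 18, where Lama3 lies, left out. Of the 26 windows of these 23 genes, 9 held GGGCGG, 4 CCAAT, 0 TATAAA and 13 GAGGAA. Of all 32851 windows, 32.7%, 33.8%, 12.4% and 23.3% did. Itga3, Itgb6 and Lamb3 have 2 windows each. The lack of a match in the window of Itga8 says only that these letters are not in these bases.

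Itga5 and Itgb5, like Itgav, had higher values in homozygous mice in the apical and middle turns without being called. Integrin alpha 5, which with beta 1 is the fibronectin receptor, was in wild-type mice at 1.6 and 1.56 (apical), 2.05 and 1.92 (middle) and 2.12 and 4.74 (basal), and in homozygous mice at 5.95 and 8.13 (apical), 6.64 and 7.56 (middle) and 4.82 and 2.76 (basal). All 4 homozygous libraries of the apical and middle turns were above all wild-type ones of any turn, with differences of 1.63 ± 0.31 (limma adjusted p = 0.0545) in the apical and 1.44 ± 0.31 (limma adjusted p = 0.0419) in the middle turn, while the pairs overlapped in the basal turn. Over the mean of the turns the difference of Itga5 was 1.07 ± 0.18 (limma adjusted p = 0.0227), and it was called there without the second wild-type basal library. Integrin beta 5, the vitronectin receptor subunit, was at 29 and 26.2 (apical), 42.6 and 29.9 (middle) and 38.8 and 62.3 (basal) in wild-type and 58 and 99.8 (apical), 61.3 and 81.3 (middle) and 45.6 and 25.4 (basal) in homozygous mice. It did not overlap in the apical (1.43 ± 0.37, limma adjusted p = 0.115) and middle turns (0.96 ± 0.37, limma adjusted p = 0.148). Markers of the stria vascularis moved with these genes, but they were not the only ones. The sum of 8 strial markers was 50.1 and 61.8 for wild-type and 334 and 935 for homozygous apical libraries, and 73.6 and 32.8 against 378 and 729 in the middle turn, with 7 and 8 of the 8 genes higher and 0 called. In the basal turn it was 42.4 and 681 for wild-type and 285 and 39.3 for homozygous libraries, where Itga5 and Itgb5 were also higher in the second wild-type and the first homozygous library than in their repeats. Their part in the levels of Itga5 and Itgb5 was not tested. Itgb1 made up 51.9% and 46.5% of the summed FPKM of the 8 beta subunits in the homozygous apical libraries and 57.5% and 57.9% in the wild-type ones.

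Integrin alpha 9, a beta 1 partner that binds tenascin-C and VCAM1, was at 3.0 and 3.32 (apical), 2.55 and 2.37 (middle) and 4.96 and 3.64 (basal) in wild-type and 7.01 and 4.87 (apical), 4.34 and 4.8 (middle) and 1.76 and 1.69 (basal) in homozygous mice. It was higher in both homozygous libraries of the apical and middle turns and lower in both of the basal turn, and none of these differences was called. That of the basal turn was -0.95 ± 0.20 (limma adjusted p = 0.0145). Its close relative alpha 4 (Itga4), which binds VCAM1 on vessels and is known from leukocytes, was at 6.68 and 1.53 in the homozygous middle turn and between 0.799 and 1.80 in the other 10 libraries. Exons of Itga4 overlap Cerkl on the opposite strand.

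Apart from Itga10, the collagen receptors were low. Itga2, the alpha 2 subunit of platelets and epithelia, was at 0.279 and 0.239 (apical), 0.553 and 0.409 (middle) and 0.102 and 1.16 (basal) in wild-type and 1.13 and 2.71 (apical), 2.33 and 1.62 (middle) and 1.06 and 0.425 (basal) in homozygous mice. Its homozygous libraries were above the wild-type ones in the apical (1.16 ± 0.38, limma adjusted p = 0.182) and middle turns (1.0 ± 0.38, limma adjusted p = 0.145), without a call. Itga1, found on fibroblasts and smooth muscle, ranged from 0.924 to 2.66, and Itga11, a receptor of fibroblasts for fibrillar collagen, from 0.606 to 5.33 with its highest values in the second wild-type basal (5.33) and first homozygous middle libraries (4.88). The epithelial beta 6 subunit Itgb6 was at 1.44 and 1.09 (apical), 0.430 and 0.640 (middle) and 0.843 and 0.655 (basal) in wild-type and 2.7 and 1.72 (apical), 0.691 and 1.07 (middle) and 0.176 and 0.382 (basal) in homozygous mice. Neither Itga1, Itga11 nor Itgb6 had a called genotype difference.

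**Figure D3:**
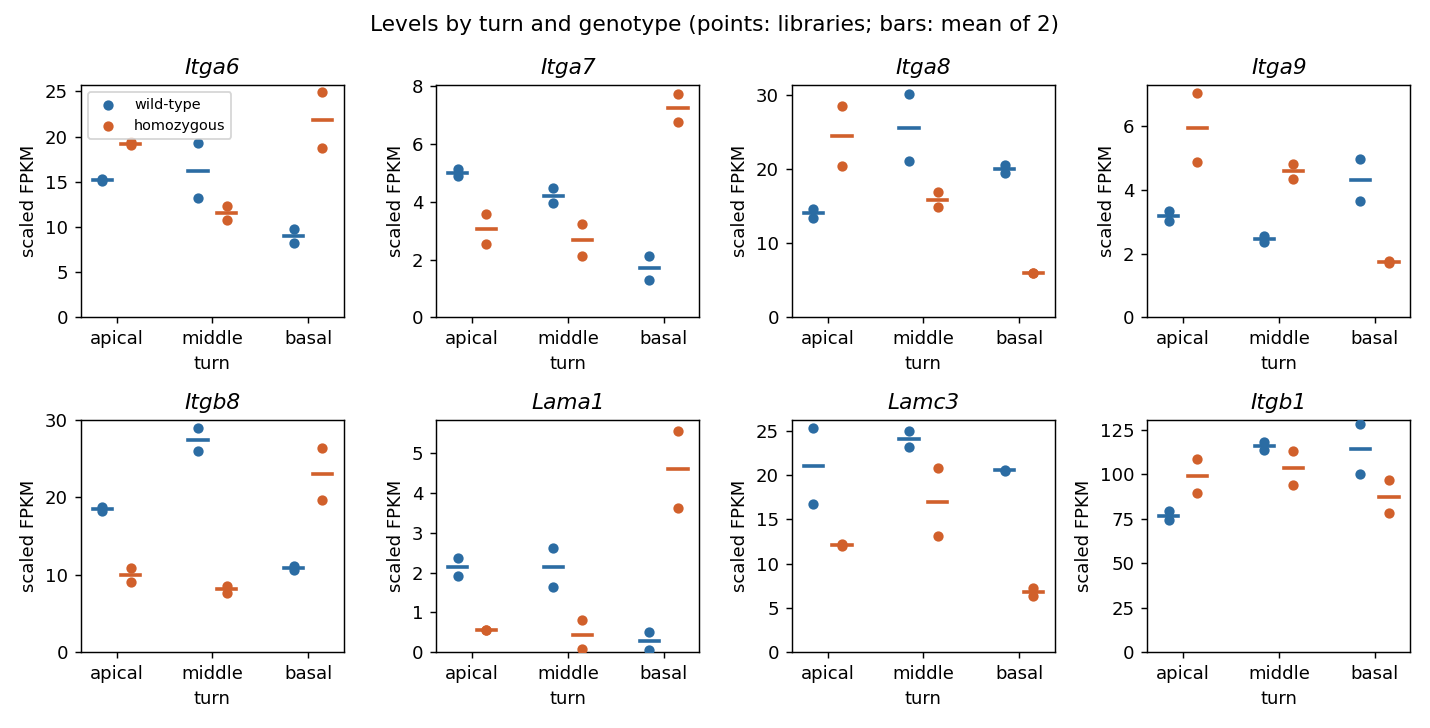
Scaled FPKM of the 7 members called in any comparison and of Itgb1 by turn; each point is 1 library, each bar the mean of 2, blue for wild-type and orange for homozygous, and every axis starts at 0. Itgb8, Itga7 and Lama1 are below wild-type in the apical and middle turns and above it in the basal turn, whereas Itga9 shows the reverse order.

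Of the laminin chains, Lama1 and Lamc3 were called in the basal turn. Laminin alpha 1, the alpha chain of the first basement membranes of the embryo, was low throughout, and in wild-type mice it stood at 1.91 and 2.37 (apical), 1.65 and 2.62 (middle) and 0.0509 and 0.496 (basal), and in homozygous mice at 0.566 and 0.557 (apical), 0.803 and 0.0819 (middle) and 5.56 and 3.62 (basal). Both homozygous basal libraries were above every other library. The wild-type basal pair, with one library at 0.0509, was under 1 scaled FPKM, so the difference of 2.13 ± 0.31 (limma adjusted p = 0.00629) depends on the pseudocount, and with one of 0.1 it was 3.94 and no longer called. Laminin gamma 3 (Lamc3) was in wild-type mice at 25.3 and 16.7 (apical), 24.9 and 23.2 (middle) and 20.5 and 20.6 (basal) and in homozygous mice at 12.2 and 12 (apical), 13.2 and 20.8 (middle) and 7.3 and 6.38 (basal). Its homozygous libraries were below the wild-type ones in all 3 turns, with a difference of -1.46 ± 0.24 (limma adjusted p = 0.00748) in the basal turn, -0.72 ± 0.24 (limma adjusted p = 0.182) in the apical turn and -0.90 ± 0.14 (limma adjusted p = 0.0154) over the mean of the turns. Only the basal difference was called. Exons of Lamc3 overlap Gm13441 on the opposite strand.

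Laminin alpha 2, the chain of muscle and of the Schwann cell basement membrane, had the highest mean of the alpha chains over all libraries, though Lama5 was above it in both homozygous apical libraries and the second homozygous middle library. In wild-type mice it stood at 28.4 and 25.4 (apical), 36.5 and 41.7 (middle) and 34.2 and 19.4 (basal), and in homozygous mice at 14.3 and 13.8 (apical), 17.4 and 20.9 (middle) and 22.9 and 28.2 (basal). The homozygous libraries lay below the wild-type ones in the apical turn (-0.89 ± 0.25, limma adjusted p = 0.136) and the middle turn (-1.0 ± 0.25, limma adjusted p = 0.0570) and overlapped in the basal turn, with no call. Laminin alpha 4, found in vessels and nerve, was at 4.23 and 8.22 for wild-type and 14.2 and 14.4 for homozygous basal libraries (1.14 ± 0.26, limma adjusted p = 0.0186), and ran from 4.23 to 14.4 over all libraries. Laminin alpha 5, the main alpha chain of mature epithelial basement membranes, was at 22.5 and 18.9 (apical), 6.42 and 11.4 (middle) and 17.1 and 6.75 (basal) in wild-type and 27.4 and 17.6 (apical), 14.3 and 23.1 (middle) and 6.0 and 2.08 (basal) in homozygous mice. Its basal pairs did not overlap, yet the wild-type pair differed among itself by more than the gap between the genotypes, and the difference was -1.35 ± 0.51 (limma adjusted p = 0.101).

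Shares of the summed alpha chain FPKM put these levels side by side. Lama2 held 45.7% and 46.8% of the sum in the wild-type apical turn and 27.7% and 33.2% in the homozygous one, and 63.9% and 64.2% against 41.4% and 38.5% in the middle turn. The share of Lama5 was 11.2% and 17.5% of that sum in wild-type and 34.1% and 42.6% in homozygous middle libraries, and 30.6% and 19.2% against 12.3% and 4.3% in the basal turn. Lama1 had 11.4% and 7.47% of the sum in the homozygous basal libraries and no more than 4.35% in any other. These shares are descriptions and were not tested.

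**Figure D4:**
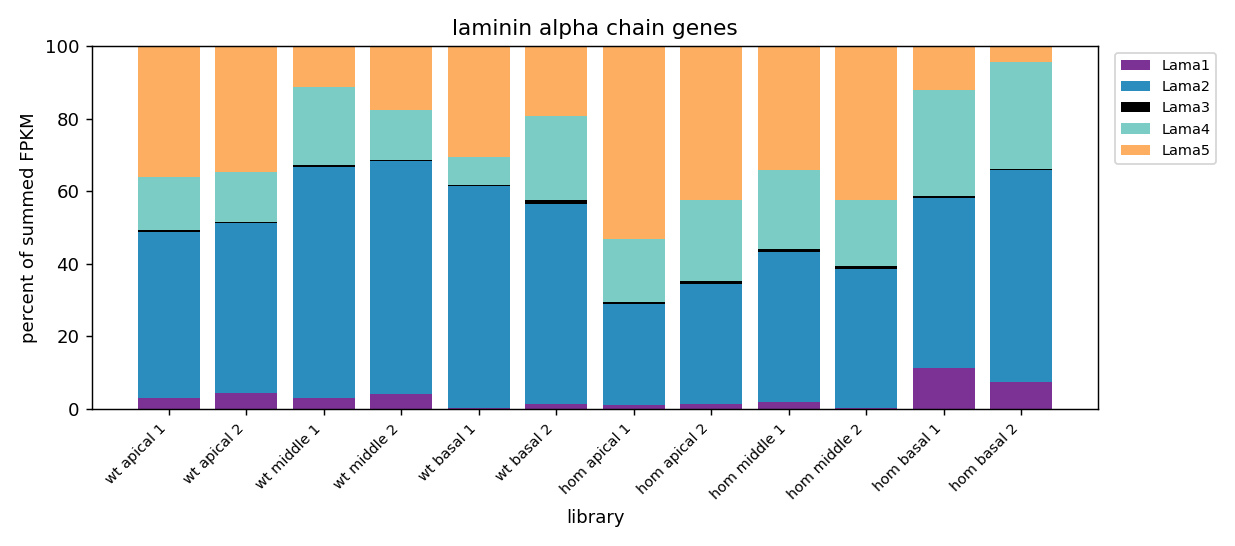
Percent of the summed scaled FPKM of the 5 laminin alpha chain genes in each library; wt stands for wild-type and hom for homozygous. The homozygous basal libraries have the largest Lama1 parts of the 12, at 7.47% and 11.4%.

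Lama3 and Lamb3, chains of a laminin that anchors epithelia through hemidesmosomes, were the laminin chains of low level beside Lama1. Lama3 was under 0.45 scaled FPKM in every library (median 0.259) and was not tested. Lamb3 was in wild-type mice at 3.63 and 3.58 (apical), 2.9 and 3.33 (middle) and 7.02 and 1.7 (basal) and in homozygous mice at 4.74 and 4.48 (apical), 4.39 and 5.02 (middle) and 1.7 and 0.273 (basal). It had its highest value in the first wild-type basal library and its lowest in the second homozygous basal library, and the basal difference of -1.33 ± 0.48 (limma adjusted p = 0.0896) was not called. The wild-type basal repeats stood far apart. Without the second of them the difference was -2.11 on the log2 scale and called, and without the first it was -0.54.

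Integrins of leukocytes and platelets were highest in single libraries. Integrin alpha M, with beta 2 the complement receptor of neutrophils and macrophages, had a median of 3.24 scaled FPKM and stood at 18.3 in the first homozygous middle library, against 2.90 in the second, and at 5.84 in the second wild-type basal library against 2.73 in the first. Itgb2 was at 22.7 and 12.2 in the same 2 libraries and between 0.513 and 3.04 in the other 10. Itgal, the alpha L subunit of lymphocytes and other leukocytes, reached 6.76 in that homozygous middle library and at most 1.56 elsewhere. Itgax, the alpha X subunit of dendritic cells and macrophages, was at 2.69 in the second wild-type basal library and at most 0.429 elsewhere, and was listed at 0 in 2 libraries. Itgad and Itgae stayed under 1 in all 12 libraries, with highest values of 0.866 and 0.213. Itgb7, a lymphocyte subunit, was at most 2.69, with 2.02 or more in the first homozygous middle, second homozygous basal and second wild-type basal libraries and 0.701 or less in the other 9.

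Platelet integrin alpha IIb (Itga2b) was at 9.13 in the first homozygous middle library, with Itgb3, its partner, at 13.1 there. In the other 11 libraries Itga2b lay between 1.0 and 5.93, and Itgb3, which also serves osteoclasts, between 1.42 and 4.04. The 2 libraries with the highest Itgam and Itgb2 were those with the highest sums of neutrophil markers, and 7 platelet markers summed to 134 in the first homozygous middle library and to 3.76 to 32.7 elsewhere. Other marker sums were also highest in the first homozygous middle library. There 7 osteoclast markers summed to 396, against 9.05 to 92.5 elsewhere, and 6 B cell markers to 113, against 17.8 to 47.0. The sum of 6 markers of T and NK cells was 8.40 there and 0.362 to 1.58 elsewhere. That of 8 macrophage markers was 203 there and higher, at 260, in the second wild-type basal library. The part of all these markers in these integrin levels was not tested. In the basal turn the homozygous libraries of Itga2b, at 1.0 and 1.13, were below the wild-type ones at 5.93 and 2.19 (-1.19 ± 0.49, limma adjusted p = 0.133). None of the tested members of this group, Itgam, Itgb2, Itgal, Itgb7, Itga2b and Itgb3, was called in a genotype comparison. Itgam, Itgax and Itgad lie next to each other on chromosome 7 and are similar in sequence, and Itgam overlaps exons of Gm49368 on the same strand, so small values of Itgad and Itgax are uncertain.

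**Figure D5:**
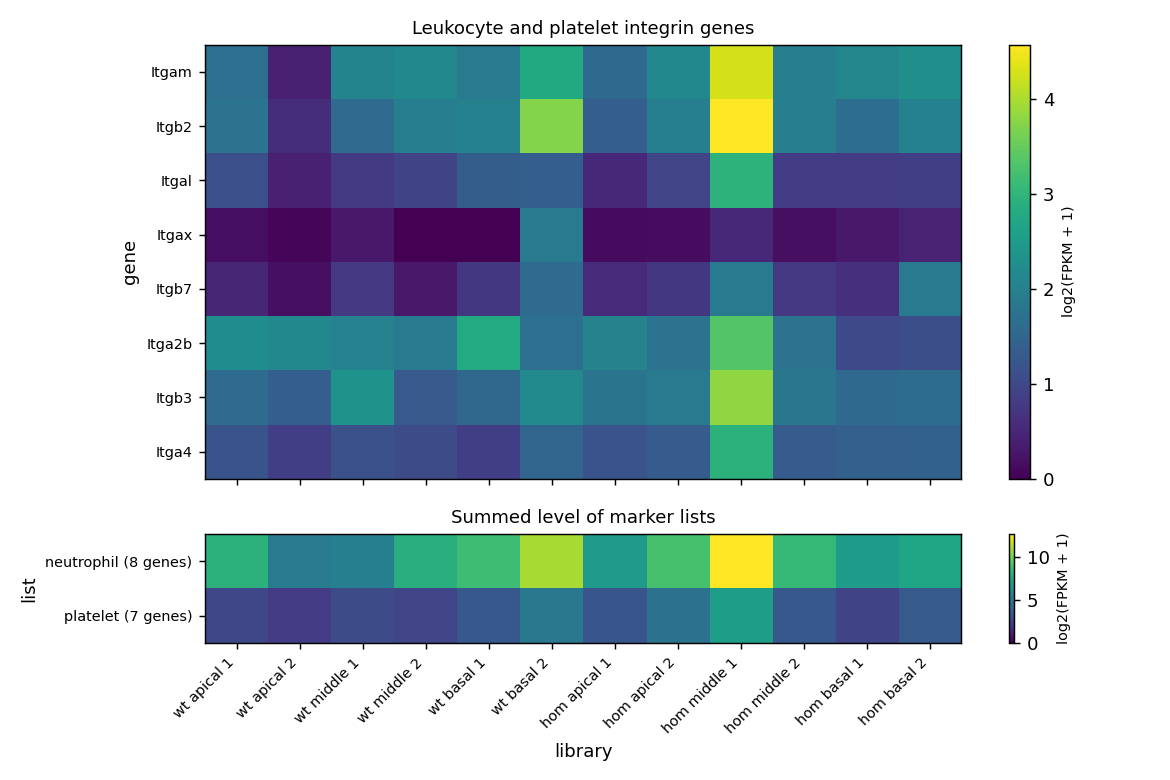
Top, log2(FPKM + 1), after scaling, of 8 integrin genes of leukocytes and platelets in each of the 12 libraries; bottom, the same scale for the summed level of 8 neutrophil and 7 platelet marker genes (wt, wild-type; hom, homozygous; each color bar starts at 0). The first homozygous middle library is the brightest column for Itgam, Itgb2, Itgal, Itga2b, Itgb3 and Itga4 and for both marker sums.

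The gene of Itgam lies at chr7:128062640-128118491 (plus strand), and the 250 bases before its RefSeq start, chr7:128062390-128062639, are shown as an example of a window with matches on both strands. It holds GAGGAA once on each strand and the reverse complement of GGGCGG, in capitals.

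Itgam: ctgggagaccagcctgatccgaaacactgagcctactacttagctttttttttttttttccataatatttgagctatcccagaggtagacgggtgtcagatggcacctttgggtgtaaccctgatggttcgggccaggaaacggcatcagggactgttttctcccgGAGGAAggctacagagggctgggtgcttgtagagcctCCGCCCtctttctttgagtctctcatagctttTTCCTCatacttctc

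A second question is whether the genotype difference was alike in the turns, which the interaction terms of the same fit test. The basal difference exceeded the apical one for Lama1 (3.14 ± 0.45, limma adjusted p = 0.00965), Itga7 (2.21 ± 0.32, limma adjusted p = 0.00992) and Itgb8 (1.84 ± 0.24, limma adjusted p = 0.00746), and fell short of it for Itga8 (-2.33 ± 0.29, limma adjusted p = 0.00690), which makes 4 called members where 0.797% of all genes were called, 0.537% higher and 0.259% lower. Against the middle turn, 5 members were called where 8.94% of all genes were, 6.35% higher and 2.59% lower. The basal difference was above the middle one for Lama1 (3.28 ± 0.45, limma adjusted p = 0.00291), Itgb8 (2.64 ± 0.24, limma adjusted p = 0.00122), Itga7 (2.14 ± 0.32, limma adjusted p = 0.00360) and Itga6 (1.62 ± 0.29, limma adjusted p = 0.00584), and below it for Itga9 (-1.63 ± 0.28, limma adjusted p = 0.00521). Between the middle and apical turns limma called 0 members and 0% of all genes, and with an unadjusted p under 0.05 there were 0 higher members (5.18% of all genes) and 3 lower (2.84%). With the adjusted p relaxed to 0.05, 8 members passed between basal and middle turns (19.9% of all genes). Without the second wild-type basal library the counts rose to 6 and 8. For basal against apical the count was 1 without the first homozygous basal library and 0 without any of the other 10, and for basal against middle it was lowest, at 1, without the second wild-type middle library. With a pseudocount of 0.1 the values of Lama1 were 5.69 against the apical turn, no longer called, and 6.36 against the middle turn. The interaction of Itgb8 between the basal and middle turns was the only one of these 9 still called whichever library was left out. These comparisons share the basal libraries with each other and with the basal genotype comparison.

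Within the wild-type cochlea, limma called 0 members between any 2 turns. For middle against apical 0.0865% of all genes were called, for basal against apical 0.0865% and for basal against middle 0%. At an unadjusted p under 0.05 there were 3 higher members (8.12% of all genes) and 2 lower (11.7%) for middle against apical, 3 higher (8.25%) and 5 lower (12%) for basal against apical, and 1 higher (5.91%) and 9 lower (9.36%) for basal against middle. Lowest p among these had Itgb8, whose wild-type basal libraries were at 10.6 and 11.1 and whose middle ones were at 25.9 and 28.9 (-1.26 ± 0.17, limma adjusted p = 0.0663). Itga7 and Lama1, higher in the homozygous basal turn, were lowest in the basal turn of wild-type mice, at 2.11 and 1.29 and at 0.0509 and 0.496.

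Other genes of the same machinery were read from 5 lists. Of 14 basement membrane genes besides laminins, 2 were called lower in the basal turn, where 1.77% of all genes were. The same 2 were called lower in the mean of the turns, where 0.352% of all genes were called in either direction. They are Col4a3 and Col4a4, which encode chains of the collagen IV network of the mature inner ear and kidney. Col4a3 was at 14.4 and 13.4 (apical), 12.3 and 21.3 (middle) and 23.2 and 22.2 (basal) in wild-type and 3.41 and 3.82 (apical), 4.04 and 3.89 (middle) and 2.31 and 1.59 (basal) in homozygous mice, and fell by 2.17 on the log2 scale over the mean of the turns (limma adjusted p = 0.000119). Col4a4 was at 12.3 and 11.9 (apical), 10.7 and 15.8 (middle) and 21.7 and 12 (basal) against 4.55 and 3.6 (apical), 4.42 and 5.28 (middle) and 2.25 and 2.21 (basal), and fell by 1.68 over the mean of the turns (limma adjusted p = 0.00191). For both genes all 6 homozygous libraries were below all 6 wild-type ones, which held for none of the 37 members. Nid1, the linker of laminin and collagen IV, was called higher in the interaction of the basal and middle turns, as were 6.35% of all genes. It stood at 23.8 and 24.4 for wild-type and 38.9 and 51 for homozygous basal libraries. At an unadjusted p under 0.05, 1 of the 14 genes was higher and 2 lower in the apical turn. The numbers were 2 and 3 in the middle turn and 2 and 4 in the basal turn.

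In the other 4 lists limma called 0 genes in any turn by genotype. Over all genes the shares at an unadjusted p under 0.05 were, as above, 7.39% higher and 9.03% lower in the apical turn, 12.9% and 12.5% in the middle turn and 16.4% and 16% in the basal turn, against which the list counts that follow can be read. Among 13 tested integrin ligands (Spp1 the highest in mean), 3 higher and 1 lower in the apical turn, 5 higher in the middle turn and 3 lower in the basal turn had an unadjusted p under 0.05. Of 9 tested laminin receptors other than integrins (Bcam the highest), the numbers were 0 and 1, 0 and 3, and 4 and 1 in the same order of turns and directions. For 20 tested adaptors and kinases of integrin signaling (Tns1 the highest) they were 0 and 2, 2 and 0, and 1 and 4. For 5 tested partners of hemidesmosomes and tetraspanins (Cd9 the highest) they were 2 and 1, 0 and 1, and 2 and 0. Dst, a linker of integrin alpha 6 beta 4 to the cytoskeleton in epithelia that also has a neuronal form, was called higher in the interactions of the basal turn with both others, at 8.62 and 14.9 scaled FPKM for wild-type and 55 and 32.3 for homozygous basal libraries. Of all genes 0.537% were called higher against the apical and 6.35% against the middle turn. Utrn and Sgcb, of the dystroglycan complex that links laminin to the cytoskeleton, and Sv2a, a synaptic vesicle protein, were called higher in the interaction of the basal and middle turns, and the epithelial cadherin Cdh1 lower. These are 3 of the 9 tested receptors and 1 of the 13 ligands, where 6.35% of all genes were called higher and 2.59% lower. The middle libraries, whose values are not given here, enter these calls too. The basal values of Cdh1 were 64.2 and 49.1 for wild-type and 47.8 and 40.4 for homozygous libraries, and those of Utrn 21.5 and 15.7 and 30.5 and 30.1.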

How the data were processed

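RNA of 12 cochlear sections was sequenced by the authors as 150 nt read pairs. Per the labels and the submitters' processing notes, they used fastp 0.20.0, STAR 2.7.3a on mm10, featureCounts 2.0.0, StringTie 2.0, deepTools 3.3.1 and DESeq2 1.30.0. The authors deposited 1 table of FPKM values from StringTie for 37432 genes, and read counts were not analysed here.

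Each library was scaled by the median of its ratios to the geometric mean, taken over 11552 genes that reached 1 FPKM in all libraries. limma 3.58.1 in R 4.3.3 was fitted to log2 of the scaled FPKM plus 1 for the 16194 genes at or above 1 in any 2 libraries, with a mean for each of 6 groups and a trend of variance on level (residual degrees of freedom 6, prior 2.78). Tests were two-sided, and p-values were adjusted by Benjamini and Hochberg across the 16194 genes. Fold changes on this scale understate those of genes near 1 FPKM. The fit was also run on simulated data in which every gene had the same spread and the noise was independent. These libraries differ from that in spread and tissue make-up, so the simulation does not bear on how far the calls hold. The 2 libraries a group and an unknown depth limit precision, and where repeats share mice p-values cover technical spread only.

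Values by library were given for members called in any contrast, the 3 of highest mean per family, the 3 largest differences without overlap per turn, genes known in cochlea, nerve or muscle, and leukocyte and platelet integrins. The values of 1 member, which enters the counts and medians, are not reported here. The members, lists and alternatives were chosen with earlier results of these data known. Alternatives were other scalings, a pseudocount of 0.1, other filters, library weights, a replicate block, other thresholds, only the groups compared, and each library left out. No source links libraries of equal repeat number, so they were not paired. Figures were drawn with matplotlib 3.10.9 (Python 3.11.15).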

Additional observations from a re-analysis of the deposited data

Results flagged for a closer look

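The genotype difference of 6 members differed between turns by a limma interaction term. For Lama1 the basal difference minus the apical one was 3.14 and minus the middle one 3.28 on the log2 scale, and with a pseudocount of 0.1 they were 5.69 and 6.36. For Itga7 these values were 2.21 and 2.14, and for Itgb8 1.84 and 2.64. Itga8 differed between basal and apical turns by -2.33, Itga6 between basal and middle turns by 1.62 and Itga9 between basal and middle turns by -1.63. All 9 compare the same 2 homozygous and 2 wild-type basal libraries with another turn. The homozygous basal libraries also had the highest neuron sums, 2593 and 2848, and the lowest hair cell sums, 7.87 and 4.76, of the 12 libraries, and the part of these in the differences was not tested.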

How the results depend on the processing

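The 106 single-gene differences examined kept their sign under all 10 other settings and without each of the 12 libraries, but few calls held throughout. Of the 16 called differences, 1 was called without any 1 library, that of Itgb8 between the basal and middle turns. Counts of called members moved as follows, the main count first. In the apical turn (0) library weights gave 1. In the middle turn (1) an adjusted p under 0.05 gave 2, and a replicate block or the compared libraries only gave 0. In the basal turn (6) an adjusted p under 0.05 gave 6 higher and 3 lower, the replicate block gave 1, and no filter, library weights or the compared libraries only gave 0. For the mean of the turns (0) an adjusted p under 0.05 gave 1. For basal minus apical (4) an adjusted p under 0.05 gave 3 higher and 3 lower, where 1148 and 658 of the 16194 genes tested passed. There a pseudocount of 0.1 or a filter of 5 gave 2, library weights 1, and no filter, the replicate block or the compared libraries only 0. For basal minus middle (5) an adjusted p under 0.05 gave 8, a filter of 5 or library weights 3, no filter 1 and the compared libraries only 0. Leaving out 1 library at a time gave 0 to 1 in the middle turn, 0 to 9 in the basal turn, 0 to 1 over the mean of the turns, 0 to 6 for basal minus apical and 1 to 8 for basal minus middle; the highest counts of the last 4 came without the second wild-type basal library. Basal minus apical fell to 0 or 1 without any other library. Basal minus middle fell to 1 without the second wild-type middle library, to 2 without the first homozygous basal library, and to 3 without either wild-type apical library, the first wild-type middle or the first homozygous middle library. The cause of these moves was not tested, apart from fewer libraries in the smaller fits.

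No source says that equal repeat numbers mark a shared mouse or day. Deviations of equally numbered libraries correlated at -0.07, -0.01 and 0.21 between the genotypes of the apical, middle and basal turns, and the replicate block, given above, was not used for the results. Libraries of different genotypes cannot share a mouse, so these values do not show whether turns of 1 mouse deviate together. Between wild-type turns the values were -0.02 (middle, apical), 0.05 (basal, apical) and -0.29 (basal, middle). Homozygous turns were not compared in this way, and the main fit took all libraries as independent. Crossing the numbers of the wild-type middle and basal libraries, a pairing chosen after seeing the data since theirs correlated at -0.29, left 0 members called between those turns. A median over members of the middle turn was 0.49 without scaling, 0.28 after quantile normalization and -0.14 with a filter of 5.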
